A study of Homo sapiens with 12 samples.

Results

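The 10 named genes of the nuclear lamina and nuclear envelope described here, measured in 12 RNA-seq libraries of human fibroblasts, were LMNA, LMNB1, LMNB2, LBR, EMD, TMPO, SUN1, SUN2, SYNE2 and LEMD3. They were taken by name from a gene count table of 60671 genes. All 10 were in the table and all 10 passed the filter on low counts, more than 1 CPM (counts scaled to a common library size) in at least 3 libraries, which 13236 genes passed. The cells were BJ-5ta, foreskin fibroblasts immortalised with telomerase (hTERT). Wild-type cells (WT) and ΔLEO1 cells, in which the LEO1 gene had been disrupted with CRISPR/Cas9, were grown in 10% serum or kept for 10 days in 0.1% serum, which brings fibroblasts to quiescence. The 4 groups, WT in 10% serum, WT in 0.1% serum, ΔLEO1 in 10% serum and ΔLEO1 in 0.1% serum, had 3 libraries each. The libraries carry running numbers, 1 to 3 for WT in 10% serum, 4 to 6 for ΔLEO1 in 10% serum, 7 to 9 for WT in 0.1% serum and 10 to 12 for ΔLEO1 in 0.1% serum. All groups share the hTERT line, and the ΔLEO1 cells are a single clone, so an effect of the deletion and a property of that clone cannot be told apart. The labels do not say whether the libraries of a group came from separate cultures, and p-values therefore measure the spread between these libraries, which may be technical.

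The libraries held 26240632 to 45315560 counts in genes. Synthetic ERCC transcripts, added to each RNA sample as a spike-in, made up 0.625% to 3.24% of all counts. LEO1, the targeted gene, had 682 to 1001 counts in the 6 WT libraries and 23 to 55 counts in the 6 ΔLEO1 libraries. The 8 fibroblast markers measured (among them COL1A1, VIM and THY1) summed to 47740 to 70250 CPM in every library. EPCAM, a defining marker of epithelial cells, was at or below 0.229 CPM, the 3 endothelial markers summed to less than 1 CPM, and CD3E, the T cell marker, was at or below 0.0381 CPM. PTPRC, the leukocyte marker CD45, differed between the genotypes, with 0.204 to 0.627 CPM in the 6 WT and 1.37 to 7.10 CPM in the 6 ΔLEO1 libraries, while CD68, of macrophages, lay between 0.428 and 1.45 CPM in all 12. The part of the PTPRC difference in the genotype comparisons was not tested. KRT8, a keratin that is also on the epithelial list, lay between 23.1 and 79.7 CPM.

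The nuclear lamina is a meshwork of intermediate filament proteins under the inner nuclear membrane. A-type lamins (lamin A and lamin C, both from LMNA) are abundant in stiff, differentiated mesenchymal cells, while B-type lamins (from LMNB1 and LMNB2) are made in nearly all cells, and loss of lamin B1 is a known mark of senescent fibroblasts. LBR, emerin (EMD), LAP2 (TMPO) and MAN1 (LEMD3) are inner membrane proteins that bind lamins or chromatin, and SUN1 and SUN2 reach across the space between the membranes to nesprins such as nesprin-2 (SYNE2), joining the lamina to the cytoskeleton.

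Levels of the 10 genes were first compared with one another within each group, as CPM per kilobase of merged exons, the quantity that allows for gene length. LMNA was the highest of the 10 in every group, with 168 ± 1.87 (SD, n = 3) in WT in 10% serum, 186 ± 18.4 (SD, n = 3) in WT in 0.1% serum, 163 ± 4.41 (SD, n = 3) in ΔLEO1 in 10% serum and 190 ± 12.6 (SD, n = 3) in ΔLEO1 in 0.1% serum. EMD, SUN2 and LMNB2 followed in every group, between 24.5 and 36.0 per kilobase on average. Of neighbours in that order, SUN2 and LMNB2 overlapped over their libraries in both WT groups, and SUN2 and EMD in both ΔLEO1 groups. TMPO, LMNB1, SUN1, LBR and LEMD3 came next, with means between 4.11 and 14.9 per kilobase, and their order changed from group to group. SYNE2, which encodes one of the longest proteins of the cell and has 31374 bases of merged exons, was the lowest in every group, with means between 0.510 and 1.01 per kilobase. Exon lengths merge all annotated transcripts, so the level of a gene with long and short isoforms, such as SYNE2, depends on which of them the cells make.

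**Figure D1:**
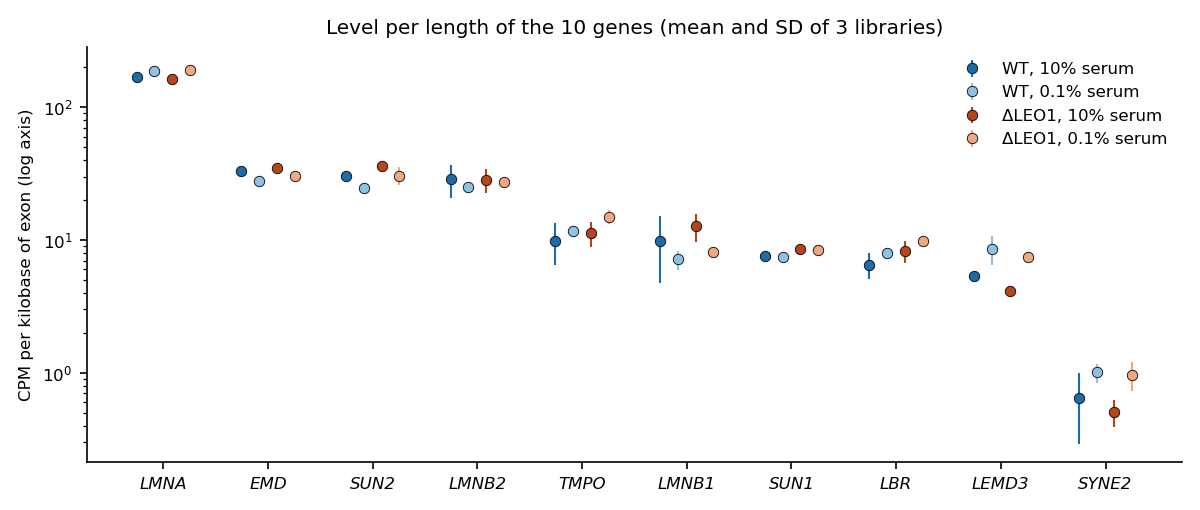
Mean level of each gene, as CPM per kilobase of exon (log axis), in the 4 groups, with the SD of 3 libraries as bars. LMNA stands apart at 163 to 190 in every group and SYNE2 is the lowest at 0.510 to 1.01.

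The highest-numbered library of each group (3, 6, 9 and 12) stood apart from the other two of its group. This was read from 21 genes of proliferating cells, such as MKI67, CDK1 and MCM2, on the TMM scale, in which each library is scaled so that most genes keep the same level and a value is thus relative to the other genes of its library. In library 3, labelled WT in 10% serum, all 21 were below both other libraries of the group, with a median difference of -1.81 on the log2 scale, and their mean log2 CPM of 4.15 was the lowest of all 12 libraries, below the WT libraries in 0.1% serum (4.43 to 5.34). In library 6 all 21 were also below both others (median difference -0.85). In library 9, labelled 0.1% serum, all 21 were above both others (0.86), and in library 12 it was 19 of 21 (0.25). Values without these libraries are given beside the results that turn on them. Leaving all 4 out leaves 2 libraries a group, and the tests then call more of all genes. These libraries were singled out from the same data. Adjusted p-values without 1 or more of them therefore show how results depend on them and are not independent tests.

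The question of the serum comparison is how expression changes when fibroblasts enter quiescence, first on the ERCC scale, in which library sizes come from the spike-in and a general loss of RNA shows. In bulk samples fewer cells and less RNA per cell cannot be told apart, and whether the spike-in was added per cell or per amount of RNA is not given in the sources used here. LMNB1 had 5829, 4969 and 987 CPM relative to ERCC counts in libraries 1, 2 and 3 and 1096, 1428 and 1152 in libraries 7, 8 and 9. Library 3 lay below all 3 libraries in 0.1% serum, so the groups overlapped. ΔLEO1 cells had 7821, 6416 and 3572 in libraries 4, 5 and 6 and 1448, 899.6 and 2796 in libraries 10, 11 and 12, which did not overlap, where 50.9% of all genes were lower without overlap.

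In WT cells 4 of the 10 genes fell in 0.1% serum on the ERCC scale (edgeR quasi-likelihood test, Benjamini-Hochberg adjusted over 13236 genes), where 27.0% of all tested genes were called lower and 0.831% higher. These were LMNB1 (log2 fold change -1.68, SE 0.49, adjusted p = 0.0077), SUN2 (-1.37, SE 0.47, adjusted p = 0.0242), LMNB2 (-1.32, SE 0.48, adjusted p = 0.0299) and EMD (-1.28, SE 0.48, adjusted p = 0.0365). The other 6 had values from -1.05 (SUN1) to -0.38 (LEMD3). All 10 were negative, with a median of -0.99, beside a median of -0.97 over all tested genes. In ΔLEO1 cells 5 of the 10 fell, where 36.4% of all genes were called lower and 0.793% higher: LMNB1 (-1.79, SE 0.49, adjusted p = 0.0057), EMD (-1.36, adjusted p = 0.0287), SUN2 (-1.30, adjusted p = 0.0310), LMNB2 (-1.19, adjusted p = 0.0412) and SUN1 (-1.14, adjusted p = 0.0482). Here the median of the 10 was -1.04 and that of all tested genes -1.05. The SE was between 0.45 and 0.49 for all 10 genes in both comparisons. The ERCC share of the counts ranged from 1.09% to 3.24% among libraries 10 to 12, and its part in this spread was not tested.

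The counts of genes that fell depended on single libraries. Without library 1, 2, 7 or 9 none of the 10 was called in WT cells, and without library 3, 11 or 12 it was 7, 7 and 8. Of all genes 959, 1206, 794 and 1056 were called without library 1, 2, 7 and 9 in turn, beside 3688 with all libraries. It was 6197, 7422 and 8284 without library 3, 11 and 12 in turn. In ΔLEO1 cells none was called without library 4 or 10, 1 without library 5, 7 or 11, 2 without library 2, and 9 without library 12. Here 609 and 462 of all genes were called without library 4 and 10 in turn, beside 4925 with all libraries. It was 1264, 2312 and 935 without library 5, 7 and 11 in turn, 2436 without library 2, and 11632 without library 12. Without all 4 highest-numbered libraries 9 of 10 were called lower in WT cells (63.4% of all genes) and 10 of 10 in ΔLEO1 cells (92.0% of all genes). The direction of LMNB1 was negative throughout, from -2.14 to -1.30 in WT cells and from -2.34 to -1.48 in ΔLEO1 cells over the fits that left out 1 library.

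**Figure D2:**
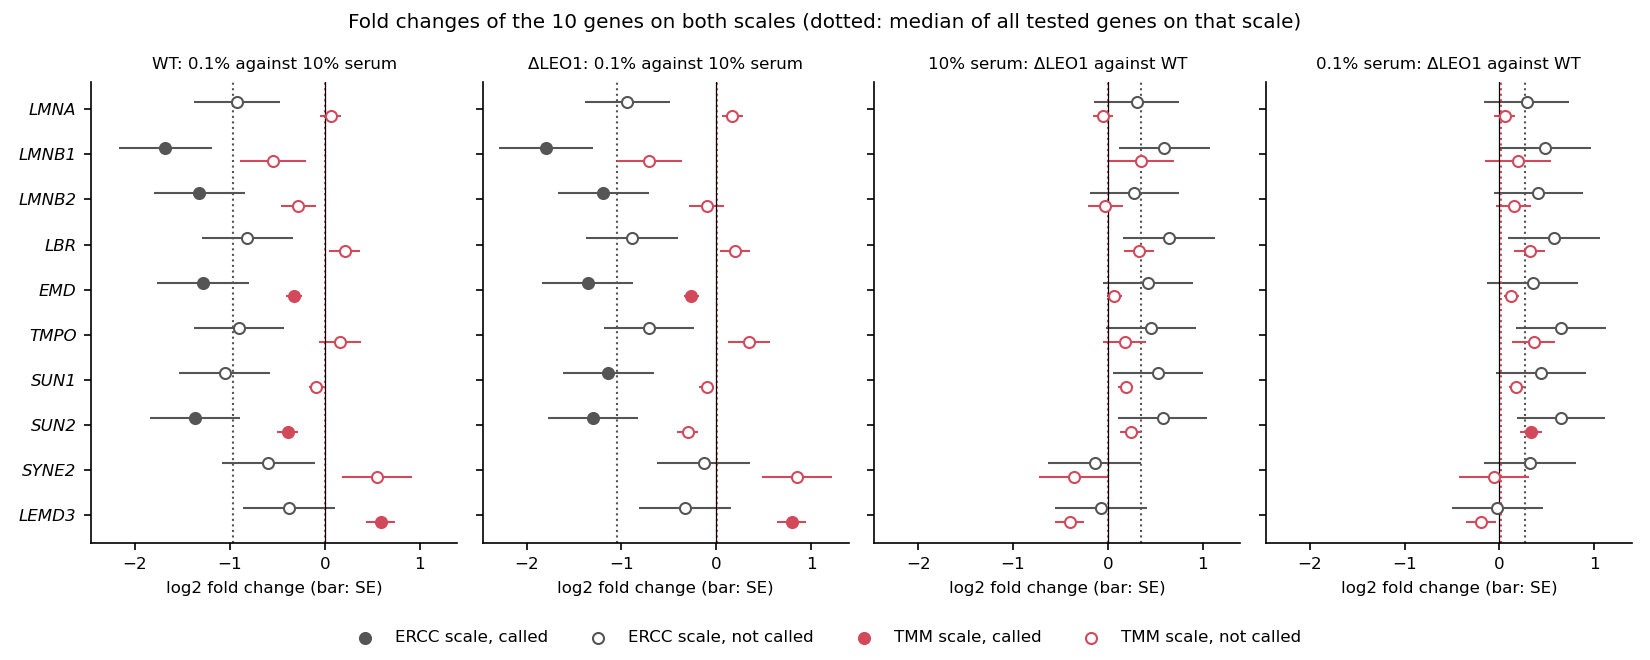
Log2 fold change with its SE (bar) of the 10 genes in 4 comparisons, on the ERCC scale (grey) and the TMM scale (red), filled where adjusted p is under 0.05, with dotted lines at the median of all tested genes. On the ERCC scale the 10 genes lie around the shifted median of -0.97 and -1.05 in the serum comparisons, and on the TMM scale they run from LMNB1 at the left (-0.55 in WT and -0.71 in ΔLEO1 cells, not called) to LEMD3 in WT (0.59, called) and SYNE2 in ΔLEO1 cells (0.85, not called) at the right.

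Relative to the other genes of the library, on the TMM scale, the median of all tested genes was 0.00 in WT and 0.01 in ΔLEO1 cells. In WT cells EMD and SUN2 fell and LEMD3 rose in 0.1% serum, where 16.1% of all genes were called lower and 15.5% higher. In ΔLEO1 cells EMD fell and LEMD3 rose, where 12.1% were called lower and 15.5% higher. For 10 genes these counts are near the shares of all genes. LMNA, LMNB1, LMNB2, LBR, TMPO, SUN1 and SYNE2 were not called in either genotype on this scale. Without libraries 3, 6, 9 and 12 there were 4 lower and 1 higher in WT cells, where 30.0% of all genes were called lower and 27.1% higher. In ΔLEO1 cells it was then 4 lower and 3 higher, where 27.7% were called lower and 28.3% higher.

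**Figure D3:**
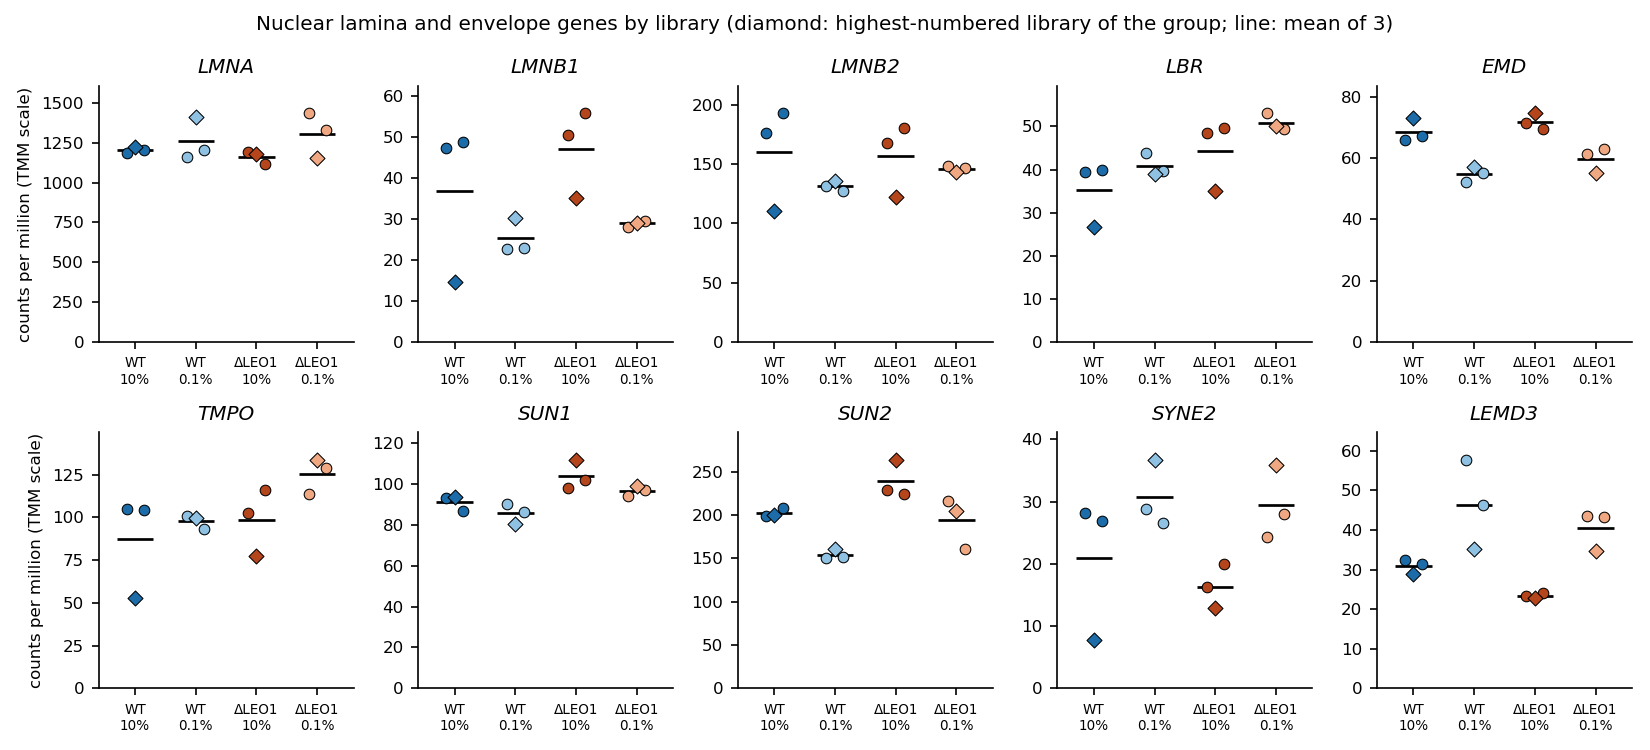
CPM on the TMM scale of each gene in each of the 12 libraries, with the group mean as a line and the highest-numbered library of each group as a diamond (y axes start at 0 and differ between genes). The diamond of WT in 10% serum lies below the circles of its group for LMNB1, LMNB2, LBR, TMPO, SYNE2 and LEMD3. LEMD3 is higher in 0.1% serum in both genotypes without overlap, as were 24.7% of all genes in WT and 22.2% in ΔLEO1 cells.

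LMNA (ENSG00000160789, chromosome 1 from 156082573 to 156140089, GRCh38, plus strand) encodes the A-type lamins. It had 1185, 1204 and 1225 CPM in WT in 10% serum and 1163, 1202 and 1410 in WT in 0.1% serum. ΔLEO1 cells had 1192, 1117 and 1178 CPM in 10% serum, and 1434, 1331 and 1157 after 10 days in 0.1% serum. The groups overlapped, and the log2 fold changes of 0.06 (SE 0.11) in WT and 0.17 (SE 0.11) in ΔLEO1 cells were not called. Without libraries 3, 6, 9 and 12 the value in ΔLEO1 cells was 0.26 (SE 0.07, adjusted p = 0.0035).

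LMNB1 (ENSG00000113368, chromosome 5 from 126776623 to 126837020, plus strand) encodes lamin B1. It had 47.3, 48.6 and 14.7 CPM in libraries 1, 2 and 3 of WT in 10% serum and 22.7, 22.7 and 30.2 CPM in WT in 0.1% serum. Libraries 1 and 2 lay above the 3 libraries in 0.1% serum and library 3 below them. ΔLEO1 cells had 50.5, 55.7 and 35.1 CPM in 10% serum and 28.1, 29.6 and 28.9 CPM in 0.1% serum, lower in each library of the latter, where 21.0% of all genes were lower without overlap. The log2 fold changes of -0.55 (SE 0.35, adjusted p = 0.250) and -0.71 (SE 0.35, adjusted p = 0.150) were not called. Leaving out library 3 alone gave -0.93 (adjusted p = 0.0045) in WT cells, and -0.71 (SE 0.16, adjusted p = 0.0088) in ΔLEO1 cells, whose libraries were the same but share one estimate of the spread with the WT libraries. Without all 4 highest-numbered libraries they were -1.08 and -0.88. Library 3 was singled out by the proliferation genes of these same data, and LMNB1 was low where those genes were low in 10% serum. The adjusted p-values without library 3 are therefore descriptions and not independent tests.

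LMNB2 (ENSG00000176619, chromosome 19 from 2427638 to 2456996, minus strand), which encodes lamin B2, had 177, 193 and 111 CPM in WT in 10% serum and 132, 128 and 136 in WT in 0.1% serum. Again library 3 was the lowest of the 6. In ΔLEO1 cells LMNB2 had 168, 180 and 122 CPM in 10% serum and 148, 146 and 143 in 0.1% serum, with library 6 the lowest. Its log2 fold changes were -0.28 (SE 0.19) and -0.10 (SE 0.19), neither called. In WT cells it was -0.49 (adjusted p = 0.0274) without library 3, and without all 4 highest-numbered libraries it was -0.51 in WT and -0.24 in ΔLEO1 cells, both called. LMNB2 shares 257 exon bases with TIMM13 on the same strand, and how reads in shared bases were assigned is not given in the sources used here.

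In 10% serum LMNB1 and LMNB2 were low in the libraries in which the 21 proliferation genes were low. The mean log2 CPM of those genes was 5.85, 5.89 and 4.15 in libraries 1, 2 and 3, and log2 CPM of LMNB1 was 5.57, 5.60 and 3.88. LMNB2 was at 7.47, 7.59 and 6.79 in the same libraries. For libraries 4, 5 and 6 the proliferation mean was 6.03, 6.16 and 5.24, with LMNB1 at 5.66, 5.80 and 5.14 and LMNB2 at 7.40, 7.50 and 6.93. In libraries 7, 8 and 9 the proliferation mean was 4.52, 4.43 and 5.34, LMNB1 was at 4.51, 4.51 and 4.92, and LMNB2 was at 7.04 in library 7, slightly lower in library 8 and highest in library 9, at 7.08. Libraries 10, 11 and 12 did not follow, with proliferation means of 5.16, 5.06 and 5.41, LMNB1 at 4.81, 4.89 and 4.86 and LMNB2 at 7.21, 7.19 and 7.16, lowest where the proliferation mean was highest. Among the 8896 genes with a mean of at least 10 CPM, those whose log2 CPM over the 12 libraries was most like LMNB1 were CCNB1 (Pearson r = 0.984), PRR11 (0.977) and DLGAP5 (0.977). CCNB1, cyclin B1, is also one of the 21. For LMNB2 they were CENPH (0.951), MCM7 (0.947) and CKAP2 (0.932), and for LMNA they were SCAND1 (0.919), RPL27A (0.902) and TMEM200B (0.901). These correlations are descriptions over 12 libraries in 4 groups that share their scaling factors, and each gene named is among the top 3 of 8896. The part of proliferation in the LMNB1 values was not tested.

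**Figure D4:**
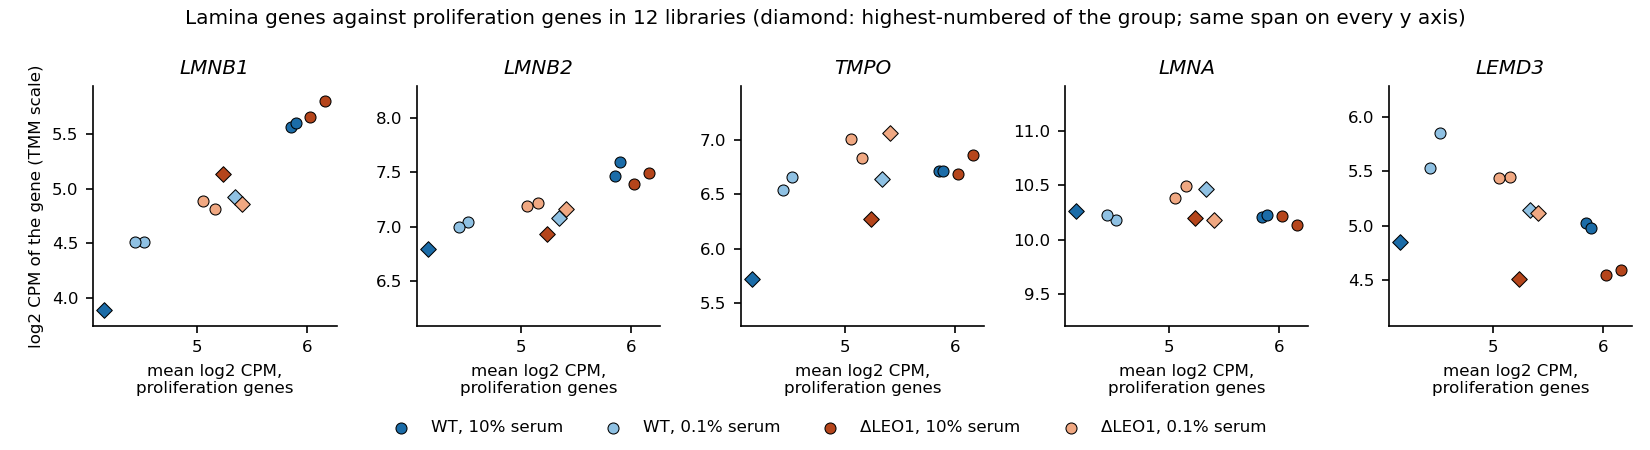
Log2 CPM (TMM scale) of 5 genes against the mean log2 CPM of 21 proliferation genes, 1 point a library, with the highest-numbered library of each group as a diamond and the same span on every y axis. LMNB1 runs from 3.88 to 5.80 along the proliferation mean (4.15 to 6.16), while LMNA stays between 10.1 and 10.5.

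A ratio of the counts of 2 genes in a library needs no scaling between libraries. LMNB1 had 3.99, 4.04 and 1.20 counts per 100 LMNA counts in libraries 1, 2 and 3 and 1.95, 1.89 and 2.14 in WT in 0.1% serum. The ratio in ΔLEO1 cells was 4.24, 4.98 and 2.98 at 10% serum, against 1.96, 2.22 and 2.50 at 0.1%. All ΔLEO1 libraries in 10% serum thus lay above all in 0.1% serum, and in WT cells library 3 lay below. Averaged over both genotypes, the serum difference was -0.64 on the log2 scale (exact two-sided permutation test within genotype, p = 0.07, adjusted over 8 ratio tests 0.17, smallest possible p 0.005). Without library 3 it was -0.93 (exact permutation test, adjusted p = 0.04).

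For LMNB2 per 100 LMNA counts the values ran from 9.05 to 16.01 in WT in 10% serum and from 9.62 to 11.3 in WT in 0.1% serum (exact permutation p = 0.12, adjusted 0.192, over both genotypes). LMNB1 per 100 LMNB2 counts was 26.8, 25.2 and 13.3 in WT and 30.03, 30.9 and 28.8 in ΔLEO1 cells in 10% serum, with every ΔLEO1 library above every WT library. In 0.1% serum it was 17.2, 17.8 and 22.3 in WT and 18.9, 20.2 and 20.2 in ΔLEO1 cells, which overlapped. The genotype difference over both serum levels was 0.29 (exact permutation p = 0.07, adjusted 0.17), which became 0.13 (adjusted 0.168) without library 3 and 0.35 (adjusted 0.04) without library 9. The serum difference of LMNB1 to LMNB2 over both genotypes was -0.36 (exact permutation p = 0.085, adjusted 0.17). It ran from -0.53 to -0.27 with 1 library left out (smallest adjusted exact permutation p 0.04). SUN1 per 100 SUN2 counts was 46.9, 41.9 and 46.9 in WT in 10% serum and 60.4, 56.9 and 49.95 in WT in 0.1% serum, higher in each library. The ΔLEO1 libraries gave 42.8, 45.6 and 42.5 at 10%, and 43.6, 60.6 and 48.4 at 0.1% serum, which overlapped. The serum difference over both genotypes was 0.25 on the log2 scale (exact permutation p = 0.01, adjusted 0.08), and 0.29 or 0.31 without library 9 or 10 (adjusted 0.04 in both). With all libraries none of the 8 ratio tests passed after adjustment.

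**Figure D5:**
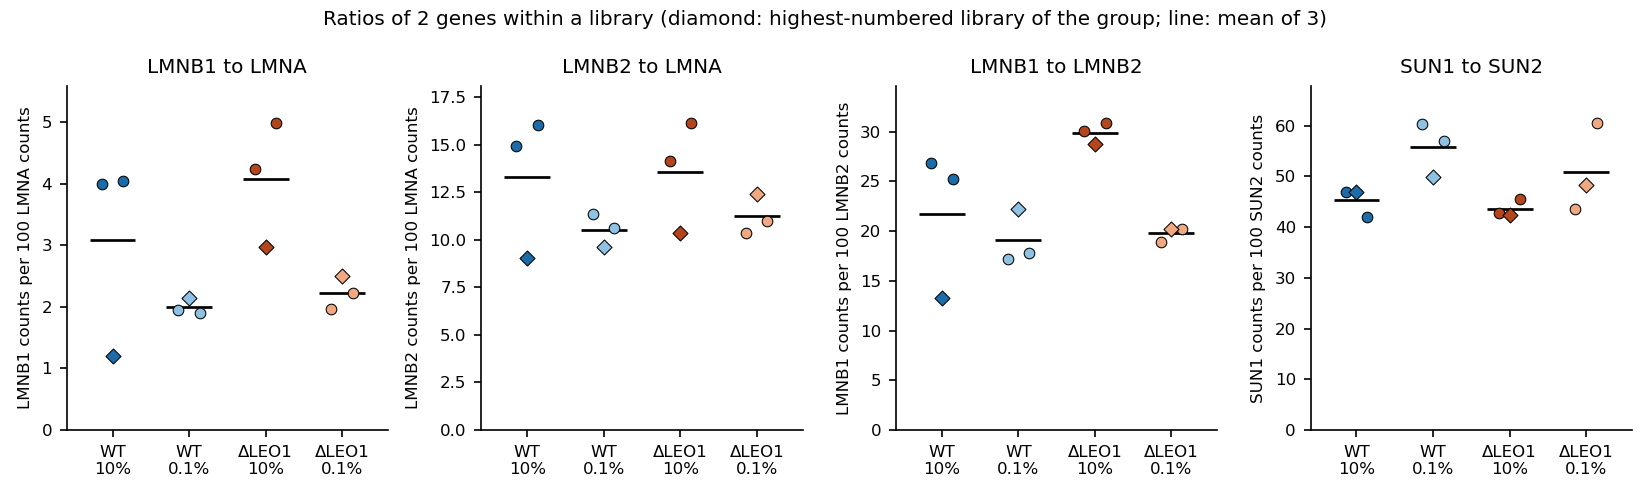
Counts of one gene per 100 counts of another in each library, with group means as lines and the highest-numbered library of each group as a diamond (y axes start at 0). LMNB1 per 100 LMNA counts is 3.99 and 4.04 in 2 WT libraries in 10% serum and 1.20 in the third, against 1.89 to 2.14 in WT in 0.1% serum.

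The promoters of the lamin genes are shown because LMNB1 and LMNB2, but not LMNA, were low in libraries 3 and 6 together with the proliferation genes. TMPO, LBR, SYNE2 and LEMD3 were also below the other libraries of the group in libraries 3 and 6, and their windows are not shown. The part of promoter motifs in these values was not tested. Each is the 250 bases before a transcript start in RefSeq (GRCh38.p14), on the strand of the gene, with matches to 5 short motifs on either strand in capitals. The motifs were CCAAT (bound by NF-Y), TTTGAA and TTCGAA (cell cycle homology element), and GCGGGAA and TTGGCGC (E2F), none of which overlapped another here. LMNA is shown for the 5′-most of its 3 starts, LMNB1 for both starts and LMNB2 for its only start, and 9 of the 10 genes had a window in the table.
LMNA, chr1:156082323-156082572, plus strand: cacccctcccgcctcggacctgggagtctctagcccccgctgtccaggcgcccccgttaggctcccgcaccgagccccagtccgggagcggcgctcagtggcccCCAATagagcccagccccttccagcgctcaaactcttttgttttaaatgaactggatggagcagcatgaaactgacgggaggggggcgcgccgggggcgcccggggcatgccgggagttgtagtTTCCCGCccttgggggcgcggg
LMNB1, chr5:126776373-126776622, plus strand: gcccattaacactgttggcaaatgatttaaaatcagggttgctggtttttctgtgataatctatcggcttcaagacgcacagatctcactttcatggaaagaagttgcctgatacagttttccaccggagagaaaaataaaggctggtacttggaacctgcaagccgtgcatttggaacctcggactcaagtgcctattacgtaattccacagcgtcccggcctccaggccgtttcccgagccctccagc
LMNB1, chr5:126776886-126777135, plus strand: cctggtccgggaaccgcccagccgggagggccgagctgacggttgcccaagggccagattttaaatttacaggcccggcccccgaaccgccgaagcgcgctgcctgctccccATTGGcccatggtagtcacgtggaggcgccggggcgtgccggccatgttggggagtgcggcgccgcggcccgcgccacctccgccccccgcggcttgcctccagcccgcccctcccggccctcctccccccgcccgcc
LMNB2, chr19:2456960-2457209, minus strand: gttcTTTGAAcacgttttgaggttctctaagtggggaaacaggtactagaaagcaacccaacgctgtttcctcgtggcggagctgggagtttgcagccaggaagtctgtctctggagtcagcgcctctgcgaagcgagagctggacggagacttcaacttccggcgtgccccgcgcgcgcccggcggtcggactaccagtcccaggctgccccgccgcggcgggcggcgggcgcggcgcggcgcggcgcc
The LMNA window shown held CCAAT at base -146 and GCGGGAA at base -22 from the start. The LMNA windows before the starts at 156082881 and 156106716, not shown, held none of the 5 motifs. In LMNB1 the upstream window held none of the 5 motifs and the downstream one held CCAAT at base -138. The LMNB2 window held TTTGAA at base -246. Of 35116 windows of this length in the table, 32.0% held CCAAT, 13.3% TTTGAA, 1.19% TTCGAA, 5.52% GCGGGAA and 2.56% TTGGCGC. Of the 17 windows of the 9 genes, 8 held CCAAT. A match describes the letters of a window and is not a bound site.

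Of the inner membrane proteins, EMD (ENSG00000102119, chromosome X from 154379197 to 154381523, plus strand), which encodes emerin, binds lamins and the chromatin protein BAF. EMD had 65.8, 67.0 and 72.9 CPM in WT in 10% serum and 52.0, 55.2 and 57.1 in WT in 0.1% serum. The ΔLEO1 libraries had 71.4, 69.4 and 74.5 CPM in 10% serum and 61.2, 62.9 and 55.1 in 0.1% serum. The groups did not overlap in either genotype, where 23.7% of all genes in WT and 21.0% in ΔLEO1 cells were lower without overlap. EMD fell by 0.32 on the log2 scale in WT (SE 0.08, adjusted p = 0.0101) and by 0.26 in ΔLEO1 cells (SE 0.08, adjusted p = 0.0287). The WT call held without each of the 12 libraries in turn (adjusted p 0.0042 to 0.0419). The ΔLEO1 call was lost without library 4, 5, 6, 10 or 12, with values from -0.29 to -0.21 and adjusted p up to 0.0832.

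LEMD3 (ENSG00000174106, chromosome 12 from 65169571 to 65248327, plus strand), which encodes the LEM domain protein MAN1, moved the other way. It had 32.4, 31.4 and 28.8 CPM in WT in 10% serum and 57.7, 46.2 and 35.3 in WT in 0.1% serum. For ΔLEO1 cells the values were 23.3, 24.1 and 22.7 CPM in 10% serum and 43.6, 43.3 and 34.7 in 0.1% serum. Every library in 0.1% serum was above every library in 10% serum of its genotype, where 24.7% of all genes in WT and 22.2% in ΔLEO1 cells were higher without overlap. Libraries 9 and 12 were the lowest of their groups. LEMD3 rose by 0.59 on the log2 scale in WT (SE 0.15, adjusted p = 0.0138) and by 0.80 in ΔLEO1 cells (SE 0.15, adjusted p = 0.0033). Without library 7 the WT value was 0.40 (adjusted p = 0.0543), and the ΔLEO1 call held without each library in turn (adjusted p at most 0.0154). On the ERCC scale its values were -0.38 (SE 0.48) and -0.33 (SE 0.48), neither called, so the rise is one relative to other genes.

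TMPO (ENSG00000120802, chromosome 12 from 98515512 to 98550379, plus strand) encodes the LAP2 proteins, of which some isoforms sit in the membrane and LAP2 alpha is free in the nucleus. It had 105, 105 and 52.8 CPM in WT in 10% serum and 101, 93.1 and 99.5 in WT in 0.1% serum. Values in ΔLEO1 cells were 103, 116 and 77.4 CPM in 10% serum and 114, 129 and 134 in 0.1% serum. Libraries 3 and 6 were the lowest of their genotype. Its fold changes of 0.16 (SE 0.22) in WT and 0.35 (SE 0.22) in ΔLEO1 cells were not called. The WT value turned to -0.10 without library 3, the ΔLEO1 value was 0.20 without library 6, and without all 4 highest-numbered libraries they were -0.11 and 0.15. TMPO shares 713 exon bases with the antisense gene TMPO-AS1, and the strand setting of the counting is not given in the sources used here.

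LBR (ENSG00000143815, chromosome 1 from 225401502 to 225428925, minus strand), the lamin B receptor, which is also a sterol reductase, had 39.5, 39.8 and 26.7 CPM in WT in 10% serum and 43.9, 39.6 and 39.0 in WT in 0.1% serum. Values in ΔLEO1 cells were 48.5, 49.6 and 34.9 CPM in 10% serum and 53.0, 49.4 and 50.2 in 0.1% serum. As for TMPO, libraries 3 and 6 were the lowest of their genotype. The fold changes of 0.21 (SE 0.16) in WT and 0.20 (SE 0.16) in ΔLEO1 cells were not called. They were 0.04 in WT cells without library 3 and 0.05 in ΔLEO1 cells without library 6.

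Of the genes that join the lamina to the cytoskeleton, SUN2 (ENSG00000100242, chromosome 22 from 38734725 to 38794143, minus strand) had 199, 208 and 200 CPM in WT in 10% serum and 150, 151 and 161 in WT in 0.1% serum. The ΔLEO1 libraries had 229, 224 and 264 CPM in 10% serum and 216, 161 and 205 in 0.1% serum. Neither pair of groups overlapped, where 23.7% of all genes in WT and 21.0% in ΔLEO1 cells were lower without overlap. Library 11 lay well below the other libraries of its group. SUN2 fell by 0.39 on the log2 scale in WT cells (SE 0.11, adjusted p = 0.0200). The value in ΔLEO1 cells was -0.30 (SE 0.11, adjusted p = 0.0636), and it was -0.18 without library 11, -0.38 without library 10 (adjusted p = 0.0418) and -0.27 without the 4 highest-numbered libraries (adjusted p = 0.0312). The WT call was lost without library 2, 7 or 8, with values from -0.38 to -0.37 and adjusted p up to 0.0690. SUN2 shares 680 exon bases with GTPBP1 on the opposite strand and 76 with DNAL4 on its own.

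SUN1 (ENSG00000164828, chromosome 7 from 816615 to 896435, plus strand), its paralogue, stayed between 80.3 and 93.7 CPM in the 6 WT libraries and between 94.3 and 112 CPM in the 6 ΔLEO1 libraries, above the WT libraries at each serum level, where 29.2% of all genes in 10% and 20.5% in 0.1% serum were higher without overlap. Its serum fold changes were -0.09 (SE 0.08) in WT and -0.10 (SE 0.08) in ΔLEO1 cells, neither called. SUN1 shares 1842 exon bases with GET4 on the same strand. SYNE2 (ENSG00000054654, chromosome 14 from 63852983 to 64226433, plus strand), the partner of the SUN proteins in the outer membrane, had 28.1, 26.9 and 7.78 CPM in WT in 10% serum and 28.8, 26.6 and 36.7 in WT in 0.1% serum. For ΔLEO1 cells the values were 16.2, 19.9 and 12.9 CPM in 10% serum and 24.3, 28.1 and 36.0 in 0.1% serum. Each library of the latter was higher, where 22.2% of all genes were higher without overlap. Library 3 was the lowest of all 12. The fold changes of 0.55 (SE 0.37) in WT and 0.85 (SE 0.37, adjusted p = 0.111) in ΔLEO1 cells were not called. Without library 3 the WT value was 0.16, and the ΔLEO1 value of 0.85 was called (adjusted p = 0.0069). Without libraries 3, 6, 9 and 12 they were 0.01 and 0.53 (adjusted p = 0.0004142 for the latter).

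The genotype comparison asks what the loss of LEO1, a subunit of the PAF1 complex that acts in transcription elongation, does to expression at each serum level. It shares its samples with the serum comparisons. On the ERCC scale none of the 10 genes was called in 10% serum, where 4.20% of all genes were called lower and 3.81% higher. None was called in 0.1% serum either, where it was 3.41% and 3.49% of all genes. At an unadjusted p under 0.05 the count was also 0 in both, against 2062 of all 13236 genes in 10% and 1712 in 0.1% serum. The edgeR likelihood ratio test and DESeq2 on the ERCC scale called 0 of the 10 as well. Of all genes the likelihood ratio test called 1170 and 984, and DESeq2 1177 and 948, in 10% and 0.1% serum. The largest values were 0.65 (SE 0.48, LBR) in 10% serum and 0.65 (SE 0.47, SUN2) in 0.1% serum. The median of the 10 was 0.44 in 10% and 0.42 in 0.1% serum, beside 0.35 and 0.27 over all tested genes. Without the 4 highest-numbered libraries the medians were 0.33 and 0.26 in 10% serum, and in 0.1% serum the direction turned, to -0.22 for the 10 and -0.42 for all genes, with none of the 10 called in either. The SUN2 value in 0.1% serum was 0.07 without library 12 alone.

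On the TMM scale none of the 10 was called in 10% serum, where 21.4% of all genes were called lower and 17.9% higher. At an unadjusted p under 0.05 there were 3: SUN1 (0.19, SE 0.08, adjusted p = 0.0762), SUN2 (0.24, SE 0.11, adjusted p = 0.103) and LEMD3 (-0.40, SE 0.15, adjusted p = 0.0583). Of all 13236 tested genes 6413 were under that threshold. The likelihood ratio test called 0, while DESeq2 with the TMM size factors called 2, SUN1 (adjusted p = 0.0499) and LEMD3 (adjusted p = 0.0459). Single libraries decided other calls in 10% serum: LEMD3 was called without library 7, 9 or 12 (-0.40 in each), SUN2 without library 11 (0.24), SYNE2 without library 3 (-0.75, adjusted p = 0.0151) and LBR without library 6 (0.48, adjusted p = 0.0321). In 0.1% serum SUN2 was higher in ΔLEO1 cells (0.33, SE 0.11, adjusted p = 0.0382) and was the only one of the 10 called, where 17.3% of all genes were called lower and 15.1% higher. The groups overlapped, with 150, 151 and 161 CPM in WT and 216, 161 and 205 CPM in ΔLEO1 cells. The call for SUN2 was lost without library 1, 2, 4, 7, 8, 10 or 12, with values from 0.25 to 0.33 and adjusted p up to 0.141. LEMD3 was at -0.19 and was called lower without library 9 (-0.36, adjusted p = 0.0488).

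Without libraries 3, 6, 9 and 12 the TMM scale gave more genotype calls, among the 10 as among all genes. In 10% serum LBR (0.31) and SUN1 (0.15) were called higher and SYNE2 (-0.60) and LEMD3 (-0.43) lower, where 30.3% of all genes were called higher and 31.9% lower. In 0.1% serum 7 were called higher, from 0.18 (LMNB2) to 0.34 (LMNB1), and LEMD3 (-0.26) lower, where 30.4% of all genes were called higher and 29.0% lower.

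Whether the response to serum differed between the genotypes was tested as the interaction of both. None of the 10 genes was called on the ERCC scale, where 0.0604% of all genes were called lower and 0.113% higher, or on the TMM scale, where it was 0.453% and 1.55%. At an unadjusted p under 0.05 the count was also 0 on both scales. Of all 13236 genes it was 280 on the ERCC and 1837 on the TMM scale. The likelihood ratio test and DESeq2 called 0 of the 10. On the TMM scale the differences ran from -0.16 (SE 0.49, LMNB1) to 0.30 (SE 0.52, SYNE2). Without libraries 3, 6, 9 and 12, LMNA (0.27, adjusted p = 0.0436), LMNB2 (0.27, adjusted p = 0.0458) and SYNE2 (0.52, adjusted p = 0.0158) were called higher on the TMM scale, where 15.7% of all genes were called higher and 8.66% lower.

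Other genes of the nuclear envelope and of lamin processing, 30 by name of which 29 passed the filter, were examined beside these 10. By the ERCC scale 7 fell in 0.1% serum in WT cells and 7 in ΔLEO1 cells, and none rose, against 27.0% and 36.4% of all genes called lower. The medians were -1.02 and -0.997. The strongest in WT cells were VRK1 (-1.59, adjusted p = 0.0168), the kinase of the DNA-binding protein BAF, FNTB (-1.56, adjusted p = 0.0210), a subunit of the farnesyltransferase that modifies prelamin A and B-type lamins, and ICMT (-1.38, adjusted p = 0.0243), which methylates them after farnesylation. In ΔLEO1 cells they were VRK1 (-1.61), TOR1AIP2 (-1.33), which encodes LULL1, an activator of torsins, and CBX3 (-1.28), which encodes HP1 gamma, a chromatin partner of LBR.

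On the TMM scale 6 of the 29 fell and 6 rose in WT cells, and 2 fell and 6 rose in ΔLEO1 cells (of all genes 16.1% fell and 15.5% rose in WT, and 12.1% and 15.5% in ΔLEO1 cells). SYNE3, which encodes nesprin-3, a link to intermediate filaments, rose by 1.00 in WT (SE 0.12, adjusted p = 0.0001481) and by 1.25 in ΔLEO1 cells (SE 0.12, adjusted p = 4.355e-05). TOR1AIP1, which encodes LAP1, rose by 0.40 (adjusted p = 0.0045) and by 0.48 (adjusted p = 0.0019). SYNE1, which encodes nesprin-1, rose by 1.06 in WT cells (SE 0.24, adjusted p = 0.0070), and TMEM43, an emerin-binding membrane protein, by 0.41 in ΔLEO1 cells (adjusted p = 0.0043). Without the highest-numbered libraries the counts were 11 lower and 9 higher in WT and 7 lower and 8 higher in ΔLEO1 cells, and on the ERCC scale 20 and 28 were lower, where 63.4% and 92.0% of all genes were.

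Between genotypes none of the 29 was called on the ERCC scale, with medians of 0.39 in 10% and 0.32 in 0.1% serum. The medians of all tested genes were 0.35 and 0.27. Of all genes 4.20% were called lower and 3.81% higher in 10% serum, and 3.41% and 3.49% in 0.1% serum. Without the highest-numbered libraries the medians were 0.28 and -0.33, beside 0.26 and -0.42 over all genes. In that setting 1 of the 29 was called lower in 0.1% serum, where 11.8% of all genes were. With all libraries the edgeR count at an unadjusted p under 0.05 was 0 in both, against 2062 and 1712 of all 13236 genes. On the TMM scale 8 were lower and 6 higher in ΔLEO1 cells in 10% serum (21.4% and 17.9% of all genes), among them FNTB (-1.16, SE 0.17, adjusted p = 0.0002429), CBX5 (-0.86, SE 0.17, adjusted p = 0.0022), which encodes HP1 alpha, and CBX3 (0.41, SE 0.08, adjusted p = 0.0016). In 0.1% serum 3 were lower and 5 higher (17.3% and 15.1% of all genes), among them SYNE1 (-1.22, SE 0.24, adjusted p = 0.0027), ZMPSTE24 (0.32, SE 0.07, adjusted p = 0.0047), the protease that matures prelamin A, and CNEP1R1 (0.41, SE 0.10, adjusted p = 0.0067), a partner of the phosphatase that acts on lipins.

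Of 32 nuclear pore genes 31 passed the filter. By the ERCC scale 8 of them fell in 0.1% serum in WT cells (median -1.02) and 22 in ΔLEO1 cells (median -1.21), against 27.0% and 36.4% of all genes. NDC1, a membrane nucleoporin that anchors the pore, fell by 1.66 in WT (adjusted p = 0.0088) and by 1.58 in ΔLEO1 cells (adjusted p = 0.0150). The central channel nucleoporin NUP58 fell by 1.38 (adjusted p = 0.0262) and by 1.57 (adjusted p = 0.0149). NUP93, a scaffold of the inner ring, fell by 1.37 (adjusted p = 0.0279) and by 1.55 (adjusted p = 0.0164). Without the highest-numbered libraries 25 and 31 were lower, where 63.4% and 92.0% of all genes were. With all libraries the interaction of genotype and serum was not called for any of the 31 on either scale. At an unadjusted p under 0.05 there were 0 on the ERCC and 1 on the TMM scale, against 280 and 1837 of all 13236 genes. Without the highest-numbered libraries 6 of the 31 were called lower and 0 higher on the TMM scale, where 8.66% of all genes were called lower and 15.7% higher.

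On the TMM scale 3 of the 31 fell and 2 rose in WT cells and 5 fell and none rose in ΔLEO1 cells, with medians of -0.03 and -0.14. Of all genes 16.1% fell and 15.5% rose in WT and 12.1% fell and 15.5% rose in ΔLEO1 cells. NUP93 fell by 0.38 in WT (SE 0.10, adjusted p = 0.0125) and by 0.47 in ΔLEO1 cells (SE 0.10, adjusted p = 0.0047). SEH1L (-0.39, adjusted p = 0.0367) was also lower and NUP42 (0.33, adjusted p = 0.0288) higher in WT cells. SEC13 (-0.36, adjusted p = 0.0317) and NUP155 (-0.48, adjusted p = 0.0339) were lower in ΔLEO1 cells. Between genotypes 1 was lower and 8 higher in ΔLEO1 cells in 10% serum (21.4% and 17.9% of all genes), among them NUP160 (0.45, adjusted p = 0.0032), NUP93 (0.41, adjusted p = 0.0060) and RAE1 (0.36, adjusted p = 0.0051). In 0.1% serum 2 were lower and 2 higher (17.3% and 15.1% of all genes), with NUP37 at -0.37 (adjusted p = 0.0063), SEH1L at 0.50 (adjusted p = 0.0107) and NUP93 at 0.32 (adjusted p = 0.0260). Without the highest-numbered libraries the counts on this scale were 10 lower and 5 higher in WT and 17 lower and 0 higher in ΔLEO1 cells for serum, and 2 lower and 18 higher in 10% and 8 lower and 8 higher in 0.1% serum for genotype, where 27.1% to 31.9% of all genes were called in each direction of each comparison.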

How the data were processed

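RNA-seq of poly(A) RNA was analysed in 12 libraries, 3 in each of 4 groups taken from the sample titles. The deposited values are raw read counts per Ensembl gene and per ERCC transcript. The authors demultiplexed reads with bcl2fastq 2.20.0.422, aligned them to GRCh38 with the ERCC sequences by STAR (2.7.10a in the submitters' processing notes) and counted exons with featureCounts 1.5.1. The annotation release and strand setting are not given in the sources used here. Genes with more than 1 CPM in at least 3 libraries were tested with the edgeR 4.0.16 quasi-likelihood test (R 4.3.3), all 12 libraries in one fit of 4 group means, at a Benjamini-Hochberg adjusted p under 0.05. On the ERCC scale library sizes were ERCC totals multiplied by TMM factors of the ERCC transcripts, as in the study. On the TMM scale they were gene totals multiplied by TMM factors of the genes. Alternatives were the likelihood ratio test, DESeq2 1.42.0, other size factors and filters, only the groups compared, and libraries left out. For the TMM scale, alternatives were added after the data were seen. Scripts were tested on simulated data. Ratios had 0.5 added to each count. Gene models came from the GENCODE annotation of GRCh38 and promoters from RefSeq. The members and lists were chosen with earlier results of these data known. Genes named from the other lists were the 3 called genes with the smallest adjusted p per comparison and scale, and for each lamin gene the 3 most correlated genes were named.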

Additional observations from a re-analysis of the deposited data

How the results depend on the processing

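No paired analysis was possible because the running numbers are all different and none links libraries across groups, so no fit with the replicate number as a block could be made. On the ERCC scale 4 of the 10 genes were called for serum in WT cells, 2 without a filter on low counts, 7 with only the groups compared and 9 without the highest-numbered library of each group. In ΔLEO1 cells 5 were called, 2 with TMM or DESeq2 size factors on the gene counts, 1 without a filter, 0 with only the groups compared and 10 without the highest-numbered libraries. The genotype comparison in 0.1% serum called 0, and 1 with either of those size factors. Without the highest-numbered libraries on the TMM scale the counts were 5 and 7 for serum in WT and ΔLEO1 cells, 4 and 8 for genotype in 10% and 0.1% serum and 3 for the interaction, and DESeq2 with TMM size factors called 2 for genotype in 10% serum. Leaving out 1 library at a time gave 0 to 8 (WT) and 0 to 9 (ΔLEO1) for serum on the ERCC scale, and on the TMM scale 1 to 5 and 1 to 4 for serum and 0 to 1 and 0 to 2 for genotype.

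Of all genes tested, 13236 with all libraries and the filter and 12911 without the highest-numbered libraries, 3688 were called for serum in WT cells on the ERCC scale, 7816 with only the groups compared, 8315 without the highest-numbered libraries and 7365 without them on the TMM scale. In ΔLEO1 cells it was 4925, 2629 without a filter, 560 with only the groups compared, and 11958 and 7226 without those libraries. Genotype in 10% serum gave 1060, 5205 with TMM and 5216 with DESeq2 size factors on the gene counts, 1647 without a filter and 8033 on the TMM scale without those libraries. In 0.1% serum it gave 914, 4293 and 4286 with those size factors, 523 with only the groups compared, and 1814 and 7680 without those libraries. The interaction gave 23, 265 and 263 with those size factors, 59 and 3140 without those libraries, and on the TMM scale 540 by the likelihood ratio test and 646 by DESeq2. Leaving out 1 library at a time gave 794 to 8284 (WT) and 462 to 11632 (ΔLEO1) for serum, 726 to 1721 and 574 to 1501 for genotype in 10% and 0.1% serum and 13 to 71 for the interaction, and on the TMM scale 2702 to 4968 and 2427 to 4373 for serum and 106 to 429 for the interaction. The cause of these differences was not tested.

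For serum LMNA, LBR, TMPO, SYNE2 and LEMD3 were negative on the ERCC and positive on the TMM scale in both genotypes, and of these LEMD3 was called on the TMM scale. Its serum change of -0.38 in WT and -0.33 in ΔLEO1 cells on the ERCC scale became 0.59 and 0.80 with TMM, 0.59 and 0.79 with DESeq2 size factors, and 0.71 and 0.88 with TMM without the highest-numbered libraries. In that last setting LMNA was at 0.26 and SYNE2 at 0.53 for serum in ΔLEO1 cells, and LMNA at 0.27 for the interaction, each with the opposite sign of its ERCC value. For serum the median of all genes was 0.00 and 0.01 with TMM and -0.97 and -1.05 on the ERCC scale. For the interaction both the scale and the libraries differed, and the cause was not tested. With 1 library left out, signs of members that neither setting called differed in 61 cases on the ERCC and 22 on the TMM scale. Over the other settings they differed in 49 cases from the main ERCC fit and in 3 from the main TMM fit. The settings behind the 49 include TMM and DESeq2 size factors on the gene counts, so some of the 49 are changes of scale. With 1 library left out, the log2 ratio of LMNB1 to LMNA ranged from -0.93 to -0.49 for serum, LMNB1 to LMNB2 from -0.53 to -0.27 for serum and from 0.13 to 0.38 for genotype, and SUN1 to SUN2 from 0.19 to 0.31 for serum. The lowest count of the 10 genes in any library was 295 (SYNE2 in library 3), and 3 libraries a group limit the precision.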
